A study of Mus musculus with 9 samples.

Results

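The 9 genes described here encode the MHC class II machinery of intestinal epithelial cells (IECs): the antigen-binding chains H2-Aa, H2-Ab1 and H2-Eb1, the invariant chain Cd74, the transactivator Ciita, the peptide-loading chains H2-DMa, H2-DMb1 and H2-DMb2, and the protease Ctss. They were taken by gene symbol, 9 of the 29288 genes in the count table, and all 9 were among the 18933 genes tested. Bulk RNA-seq was performed on live EpCAM+ CD45- CD31- Ter119- cells sorted from proximal small intestinal crypts of female wild-type C57BL/6J mice, 7 to 10 weeks old per the study's methods. Each of the 3 groups held 3 mice: control (PBS, harvested at 18 h), 18h-αGal and 72h-αGal (2 µg α-Galactosylceramide intraperitoneally, harvested at 18 h or 72 h). α-Galactosylceramide is a glycolipid presented by CD1d that activates natural killer T (NKT) cells, so the question was how epithelial genes changed once NKT cells had been activated. No PBS mice were taken at 72 h, so in comparisons of 72h-αGal with control or with 18h-αGal the time since treatment and the harvest itself cannot be told apart.

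MHC class II molecules display peptides from endocytosed material to CD4 T cells. The α and β chains assemble in the endoplasmic reticulum with the invariant chain, proteases such as cathepsin S trim the invariant chain in endosomes to a short fragment, and the H2-DM heterodimer exchanges that fragment for peptide. Their transcription depends on CIITA, a coactivator that binds no DNA itself but docks on factors held at the X and Y boxes of class II promoters, and in non-haematopoietic cells CIITA is classically induced by interferon-γ. Small intestinal epithelium is among the non-haematopoietic tissues known to express class II. C57BL/6 mice carry a defective gene for the Eα partner of H2-Eb1.

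Library totals ran from 8887861 to 32722293 counts, the lowest being control replicate 3. This library also stood apart for class II: 8 of the 9 members were at least 2 times as high in it as in the higher of the other controls, against 5.39% of all genes tested, and Ctss was 1.72 times as high. H2-DMb2 is among the 8 with counts of 0 in the other controls. Control 3 was thus the sample on which most tests turned, and results are given below with and without it. Its epithelial makeup differed too, with 932 normalised counts of the stem cell gene Lgr5 against 2424 and 3241 in control 1 and 2, and 26216 of the brush border gene Vil1 against 16430 and 13049. Whether these differences have a part in its class II level was not tested, and its label gives no reason to leave it out.

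Promoter stretches are shown because X and Y boxes are where CIITA acts, and for each member whose window held one of the letters searched, whether or not its level changed. Windows from 250 bases before to 50 after the start of transcription (RefSeq, GRCm38.p6) were on hand for H2-Aa, H2-Eb1, H2-DMb1, H2-DMb2, Ctss and, as 2 windows, H2-DMa. Motif letters were chosen after the windows had been read. In the stretches below, written 5′ to 3′ on the strand of the gene, capitals mark the X box core AACNGATGA, the Y box core TGATTGG and, in Ctss, the core of an interferon-stimulated response element, GAAANNGAA. The stretches lie at chr17:34305751-34305827 (H2-Eb1, plus strand), chr17:34153073-34153149 (H2-DMb1, plus), chr17:34145102-34145178 (H2-DMb2, plus), chr17:34287852-34287928 (H2-Aa, minus) and chr3:95526726-95526785 (Ctss, plus).
H2-Eb1: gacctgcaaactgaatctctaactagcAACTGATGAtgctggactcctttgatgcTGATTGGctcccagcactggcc
H2-DMb1: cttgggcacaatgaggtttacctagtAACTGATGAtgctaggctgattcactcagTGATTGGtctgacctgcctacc
H2-DMb2: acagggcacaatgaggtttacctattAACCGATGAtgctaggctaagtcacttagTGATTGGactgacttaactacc
H2-Aa: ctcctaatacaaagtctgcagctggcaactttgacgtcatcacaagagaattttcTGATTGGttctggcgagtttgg
Ctss: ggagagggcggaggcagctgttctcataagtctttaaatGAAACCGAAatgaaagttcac

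Both cores stood on the coding strand in the windows of H2-Eb1, H2-DMb1 and H2-DMb2, which made up 3 of 4 such windows among 32851. The fourth belonged to BC051142, a gene named here after its window was seen. Because the letters were chosen after the members' windows had been read, this count cannot set the members apart. H2-DMb1 and H2-DMb2 are also near copies, so their matches are not independent. On either strand, 7.82% of all windows held the Y box core and 0.648% the X box core. The Y box core began 50 bases before the start in H2-Aa, whose window lacked the letters AACNGATGA, 61 before it in H2-Eb1, 63 in H2-DMb1 and 92 in H2-DMb2. Neither core was found in the windows of H2-DMa and Ctss. The interferon element letters, which 8.56% of windows held on either strand, were found in Ctss alone of these genes and began 21 bases before its start. TTCNNNGAA, the interferon-γ activation site, reads alike on both strands and was found in 8.3% of windows, among these members in H2-DMb2 only. A match is a description of letters and no evidence of binding, and a window without the letters may still hold a box in another form.

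The antigen-binding chains had the largest fold changes of the members at 18 h. H2-Aa, the α chain of I-A, was at 129, 235 and 1788 normalised counts in control replicates 1 to 3, at 11052, 10675 and 11415 in 18h-αGal, and at 2148, 1278 and 1182 in 72h-αGal. All 18h-αGal libraries lay far above every other library, while control 3 lay inside the 72h-αGal range. The log2 fold change of 18h-αGal against control was 4.03 ± 1.04 (SE), with an edgeR adjusted p of 0.0832, which missed the threshold of 0.05. H2-Ab1, the β chain of I-A, was at 460, 435 and 2052 in control, at 7140, 6833 and 8153 in 18h-αGal, and at 1996, 1363 and 1144 in 72h-αGal. Again no 18h-αGal library overlapped another group, and the log2 fold change of 2.96 ± 0.67 had an adjusted p of 0.0572. H2-Eb1, the β chain of I-E, was at 243, 284 and 1210 in control, at 5488, 4888 and 4824 in 18h-αGal, and at 1083, 655 and 918 in 72h-αGal. It was the one chain to pass the test, rising by 3.20 ± 0.66 on the log2 scale (adjusted p = 0.0435).

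**Figure D1:**
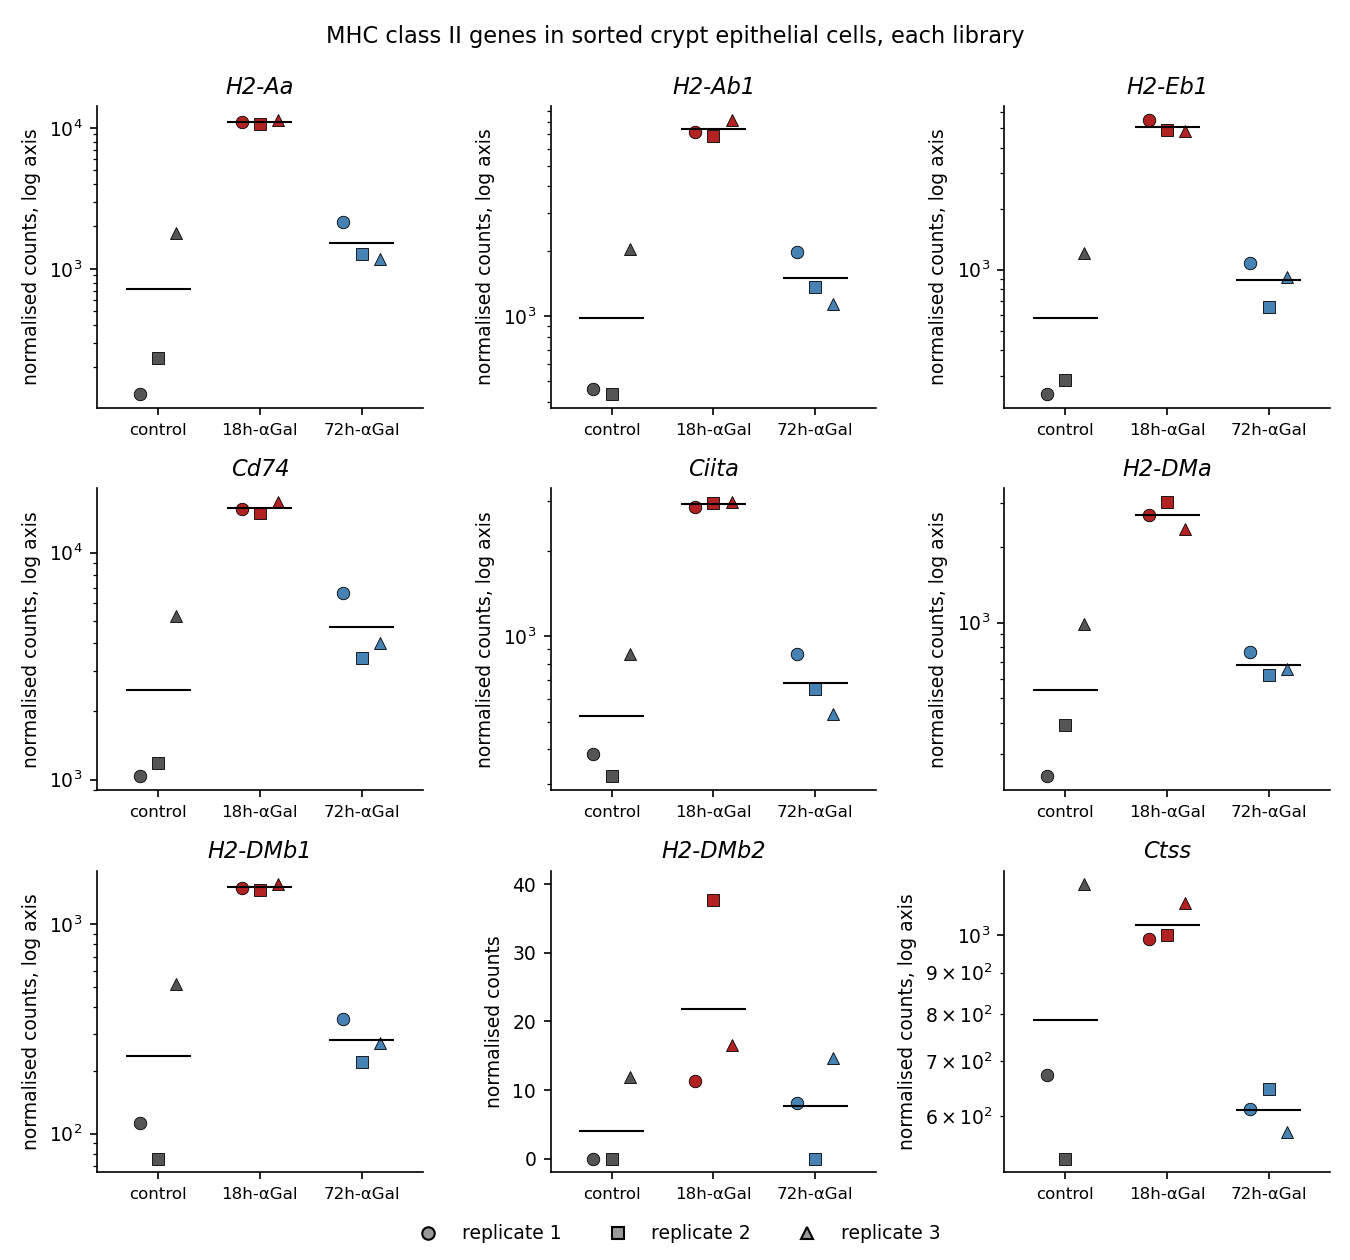
Normalised counts of the 9 class II genes in each of the 9 libraries, with 1 panel per gene, groups along the horizontal axis, a symbol for each replicate and a line at the mean of each group. The vertical axes are logarithmic except for H2-DMb2, which has counts of 0. In 7 panels the red 18h-αGal points sit above every other point and close together, and the control triangle (replicate 3) sits among the 72h-αGal points or above them.

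Cd74, the invariant chain that chaperones the new α and β chains, was at 1033, 1179 and 5261 in control, at 15577, 15017 and 16704 in 18h-αGal, and at 6651, 3444 and 3991 in 72h-αGal. It was the member with the most counts in every group, and even its lowest 18h-αGal library was 2.85 times the highest control. Its log2 fold change of 2.69 ± 0.70 had an adjusted p of 0.0833. The transactivator Ciita was at 384, 320 and 865 in control, at 2861, 2950 and 2982 in 18h-αGal, and at 864, 650 and 531 in 72h-αGal. The 18h-αGal libraries had a coefficient of variation of 2.13%, the smallest of any member in any group. Ciita rose by 2.53 ± 0.35 on the log2 scale (adjusted p = 0.0050), and it was the one member whose 18 h call held under each alternative run, with adjusted p-values from 5.04e-16 to 0.0243.

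H2-DMa and H2-DMb1, the subunits of the loading heterodimer, were also highest in 18h-αGal. H2-DMa was at 245, 391 and 989 in control, at 2681, 3019 and 2361 in 18h-αGal, and at 766, 618 and 653 in 72h-αGal, and rose by 2.37 ± 0.47 on the log2 scale at 18 h (adjusted p = 0.0295). Its β partner H2-DMb1 was at 113, 75.9 and 518 in control, at 1480, 1460 and 1549 in 18h-αGal, and at 352, 219 and 272 in 72h-αGal, a log2 fold change of 2.78 ± 0.70 that missed the threshold (adjusted p = 0.0688). Both genes were well separated at 18 h from all other libraries. H2-DMb2, a second β chain gene, had 0, 0 and 5 raw counts in control, 18, 42 and 12 in 18h-αGal, and 7, 0 and 20 in 72h-αGal. These few counts overlapped between the groups, and no comparison of H2-DMb2 passed the test (adjusted p = 0.375 for 18h-αGal against control). H2-DMb1 and H2-DMb2 are near copies, sharing 22.65% of the 50-base words in the transcripts of H2-DMb1, and reads could have been split between them in a way that the sources used here do not state.

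Ctss, which encodes the endosomal protease cathepsin S, had the smallest fold change of the members at 18 h. It was at 673, 532 and 1155 in control, at 989, 999.8 and 1096 in 18h-αGal, and at 612, 647 and 573 in 72h-αGal. Control 3 was above all 18h-αGal libraries, and the log2 fold change of 0.41 ± 0.22 did not pass (adjusted p = 0.307). Without control 3 it was 0.77 ± 0.16 and passed (adjusted p = 0.00873), over a range of 0.00873 to 0.677 for all alternatives.

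In counts, 3 of the 9 members were called higher in 18h-αGal than in control (H2-Eb1, Ciita and H2-DMa), against 3.27% of all genes tested. The median log2 fold change was 2.78 over the members and -0.03 over all genes. In 7 of the 9, all but H2-DMb2 and Ctss, every 18h-αGal library lay above every control library, which was so for 11.5% of all genes. These 7, a subset noted after their values had been seen, had 18h-αGal means 4.96 to 15.4 times the control means. Without control 3, which leaves 2 controls, 8 of the 9 members were called higher, against 4.25% of 20326 genes tested, and H2-DMb2 was not (adjusted p = 0.0628). Control 3 was the highest control for each member, so leaving it out favours these calls in advance. The log2 fold change was then 5.94 ± 0.40 for H2-Aa, 4.04 ± 0.22 for H2-Ab1, 4.27 ± 0.21 for H2-Eb1 and 3.83 ± 0.28 for Cd74. It was 3.06 ± 0.19 for Ciita, 3.09 ± 0.21 for H2-DMa and 3.97 ± 0.25 for H2-DMb1. Of the alternatives, several gave fewer calls than the fit of all libraries: only Ciita passed without control 2, without any 1 of the 18h-αGal libraries, with a replicate block, with no filter on low counts, or when the fit held just the control and 18h-αGal libraries. For the other 6 of the 7 the highest adjusted p under any alternative was between 0.111 and 0.200. DESeq2 called 6 members (H2-Ab1, H2-Eb1, Cd74, Ciita, H2-DMa and H2-DMb1) and gave H2-Aa no adjusted p.

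At 72 h the values of most members lay nearer to control than to 18h-αGal. In 8 of the 9, every 72h-αGal library lay below every 18h-αGal library, against 16.3% of all genes, the exception being H2-DMb2. The difference passed the test for 3 members, against 6.04% of all genes called lower: Ciita at -2.10 ± 0.34 on the log2 scale (adjusted p = 0.00671), H2-DMa at -1.98 ± 0.46 (adjusted p = 0.0361) and Ctss at -0.74 ± 0.22 (adjusted p = 0.0416). For the other members the log2 fold change of 72h-αGal against 18h-αGal was -2.84 ± 0.97 for H2-Aa, -2.51 ± 0.64 for H2-Eb1, -2.41 ± 0.67 for H2-DMb1, -2.29 ± 0.65 for H2-Ab1, -1.74 ± 0.67 for Cd74 and -1.48 ± 1.50 for H2-DMb2, with adjusted p-values from 0.0588 to 0.610. The median over the members was -2.10, and 0.05 over all genes. Control 3 is no part of this comparison, but it widens the spread that the fit shares between groups. The SE of H2-Aa, for example, was 0.97 with it and 0.28 without it, at log2 fold changes of -2.84 and -2.84. Without control 3, 8 of the 9 members were called lower, against 7.49% of all genes, and these 8 were also called when just the 18h-αGal and 72h-αGal libraries were fitted. Leaving out any 1 of those libraries, or adding a replicate block, left Ciita as the sole call. The adjusted p of Ciita ran from 1.49e-11 to 0.0412 over all alternatives.

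**Figure D2:**
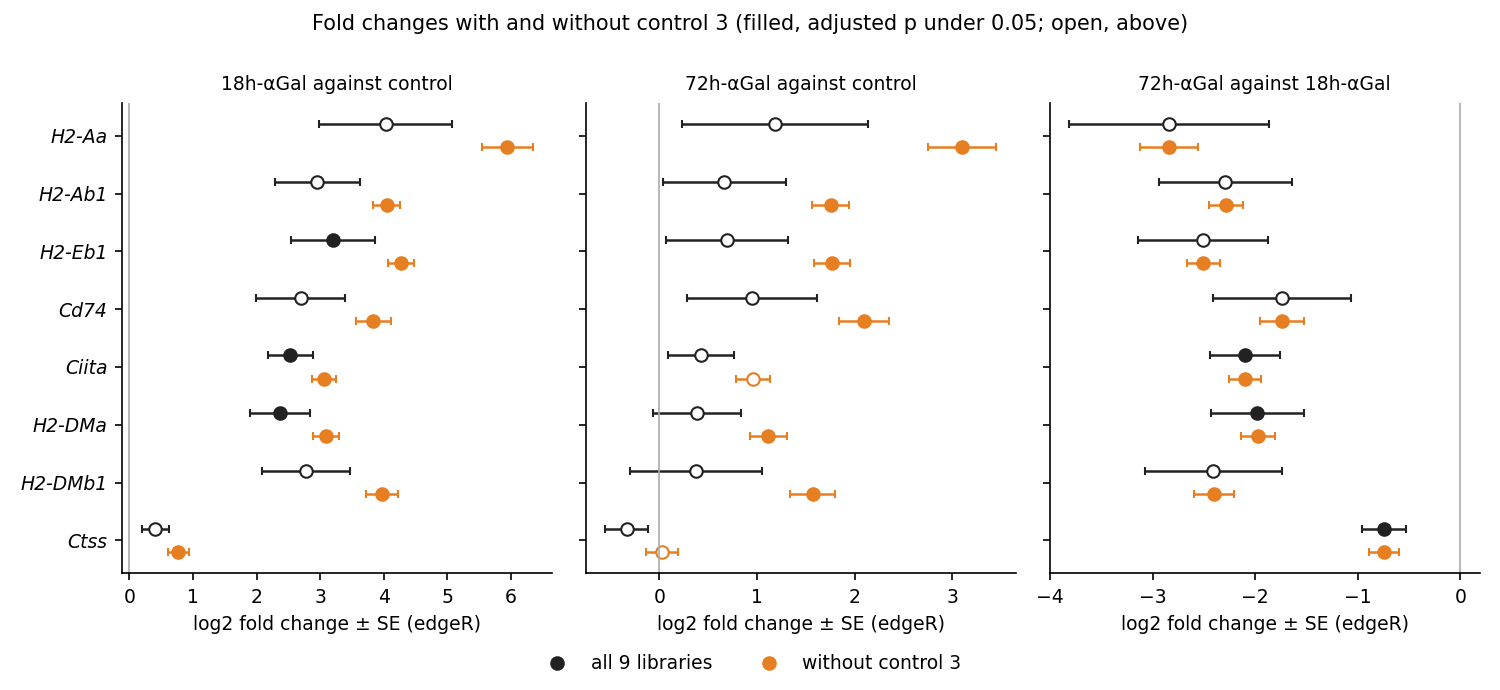
Log2 fold changes of 8 class II genes in the 3 comparisons, from edgeR, with bars of 1 SE. Black points are from all 9 libraries and orange points leave out control 3. Filled points passed an adjusted p of 0.05 and open points did not. Against control, orange points lie to the right of black ones with shorter bars, as for H2-Aa at 18 h with 4.03 and 5.94. In the right panel the positions match and the bars shorten. H2-DMb2 is left out for its few counts.

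Whether the members were still above control at 72 h depended on control 3. With all libraries, 0 of the 9 members were called higher in 72h-αGal than in control by edgeR, against 0% of all genes, 0 of the 9 had an unadjusted p under 0.05, and DESeq2 also called 0. The median log2 fold change was 0.66 over the members and 0.00 over all genes. The log2 fold changes were 1.39 ± 1.69 for the sparsely counted H2-DMb2, 1.18 ± 0.95 for H2-Aa, 0.95 ± 0.66 for Cd74, 0.69 ± 0.62 for H2-Eb1, 0.66 ± 0.63 for H2-Ab1, 0.43 ± 0.34 for Ciita, 0.39 ± 0.45 for H2-DMa, 0.37 ± 0.67 for H2-DMb1 and -0.34 ± 0.22 for Ctss. In none of the 9 was every 72h-αGal library above every control, a pattern seen in 6.36% of all genes. Set against control 1 and 2 alone, every 72h-αGal library was higher in 7 of the 9 members, which was so for 11% of all genes. Without control 3 the test called 6 members higher (H2-Aa at 3.10 ± 0.35, Cd74 at 2.10 ± 0.26, H2-Eb1 at 1.77 ± 0.18, H2-Ab1 at 1.75 ± 0.19, H2-DMb1 at 1.57 ± 0.23 and H2-DMa at 1.11 ± 0.19). They were 6 of the 11 genes called higher in that fit, 0.0541% of those tested. In each of the 11, control 3 was the highest control. Leaving it out therefore favours these genes in advance, and the count cannot set the members apart. The other 5, named after their values were seen, were Nlrc5, H2-Q7, Ifi44, H2-Q6 and Psmb8. Ciita missed the threshold there at 0.96 ± 0.18 (adjusted p = 0.0592). The adjusted p-values of these 6 members ran from 0.000459 without control 3 up to 1 under other alternatives.

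The share of the 18 h difference from control that was left at 72 h was computed for the 7 members noted above. Relative to the mean of control 1 and 2, it was 24.5% for Cd74 and 12.5% to 15.2% for the other 6. Relative to all controls the shares were 16.6% for Cd74 and 3.58% to 8.11% for the rest. These shares are descriptions with no test.

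Levels of different genes were compared as normalised counts per kb of the canonical transcript. At 18 h the order ran from Cd74 (11017 ± 600.2 per kb, SD, n = 3) through H2-Aa (9794 ± 328), H2-Ab1 (6085 ± 570) and H2-Eb1 (2986 ± 216) to H2-DMa (2334 ± 286). Below these came H2-DMb1 (1066 ± 33.5), Ctss (753 ± 42.9), Ciita (392 ± 8.34) and H2-DMb2 (15.0 ± 9.56). No neighbours in that order overlapped. In control, Cd74 again led with 1741 ± 1677 per kb, H2-Ab1 (810 ± 764) came before H2-Aa (636 ± 823), and Ctss (576 ± 239) stood above H2-DMa (471 ± 343) and H2-Eb1 (341 ± 322). H2-DMb1 (168 ± 175) and Ciita (69.9 ± 39.9) followed, and each of these neighbours overlapped the next, with only H2-DMb2 (2.71 ± 4.69) apart. At 72 h Cd74 (3281 ± 1199) was apart from H2-Aa (1361 ± 472) and H2-Ab1 (1238 ± 365), which overlapped each other.

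Ratios between members within a library were compared next. The ratio of H2-Aa to H2-Ab1 per kb, the 2 chains of one heterodimer, was 0.302, 0.582 and 0.936 in control replicates 1 to 3, 1.66, 1.68 and 1.50 in 18h-αGal, and 1.16, 1.01 and 1.11 in 72h-αGal. The 3 groups did not overlap for this ratio. Cd74 over the summed H2-Aa, H2-Ab1 and H2-Eb1 was 1.13, 1.12 and 0.921 in control, 0.575, 0.584 and 0.593 in 18h-αGal, and 1.11, 0.911 and 1.10 in 72h-αGal. The invariant chain was therefore lower relative to the antigen-binding chains in each 18h-αGal library than in any other library. The summed chains over Ciita were 12.4, 17.2 and 34.5 in control, 49.5, 45.6 and 49.4 in 18h-αGal, and 36.3, 30.4 and 35.7 in 72h-αGal. The chains were higher per unit of Ciita at 18 h than in any other library, and control 3 lay within the 72h-αGal values. H2-Eb1 over H2-Ab1 overlapped between the groups, with 0.376 to 0.466 in control, 0.423 to 0.549 in 18h-αGal and 0.343 to 0.573 in 72h-αGal. H2-DMa over H2-DMb1 was 2.65, 6.28 and 2.33 in control, 2.21, 2.52 and 1.86 in 18h-αGal, and 2.65, 3.45 and 2.94 in 72h-αGal. Ctss over Cd74 was lowest in 18h-αGal, at 0.0665 to 0.0697, against 0.230 to 0.683 in control and 0.0963 to 0.197 in 72h-αGal. With 3 mice against 3 the two-sided exact permutation test cannot go below p = 0.1, which every comparison without overlap reached, so none of these 18 comparisons could pass (adjusted p = 0.164 at best).

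**Figure D3:**
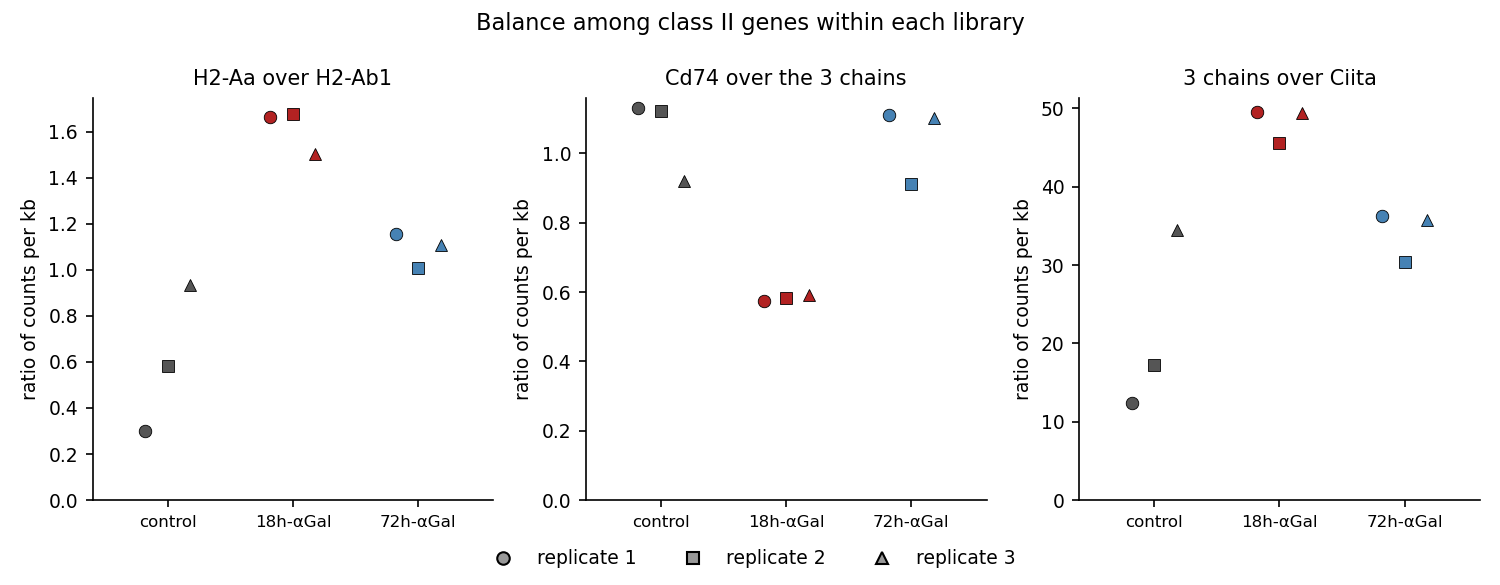
Ratios of normalised counts per kb within each library, from left to right H2-Aa over H2-Ab1, Cd74 over the sum of H2-Aa, H2-Ab1 and H2-Eb1, and that sum over Ciita. Vertical axes start at 0 and symbols mark replicates. The 18h-αGal points stand apart from the rest in each panel, at 0.575 to 0.593 in the middle one.

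Reads of overlapping genes bear on some of these values. H2-Aa (chromosome 17, 34493404 to 34506798, minus strand, GRCm39) and H2-Eb1 (34504236 to 34535648, plus strand) share 118 exon bases on opposite strands, 2.75% of H2-Aa and 4.55% of H2-Eb1. H2-DMb1 (34372046 to 34379204) shares 285 exon bases, 16.95% of its exons and the largest share of any member, with the long noncoding RNA Gm64535 on the opposite strand. H2-DMa (34338515 to 34358958) shares 510 exon bases with Brd2 on the opposite strand, or 11.8% of its exons, and Ciita (chromosome 16, 10297923 to 10347694) shares 633, or 5.73%, with Dexi. The library kit marks strand, but the counting setting is not given in the sources used here. Brd2 had a log2 fold change of -0.18 ± 0.10 at 18 h, which did not pass (adjusted p = 0.329). Gm20513, a long noncoding RNA antisense to H2-Eb1, was at 2.94, 5.70 and 19.0 in control and at 92.1, 138 and 110 in 18h-αGal (log2 fold change 3.87 ± 0.65, adjusted p = 0.00303), and without the strand setting its reads and those of H2-Eb1 cannot be told apart. Of the other protein-coding genes between H2-DMa and H2-Eb1, those for class I peptide supply rose at 18 h too: Tap1 by 2.25 ± 0.38, Psmb8 by 2.00 ± 0.37, Psmb9 by 1.99 ± 0.25 and Tap2 by 1.41 ± 0.28 on the log2 scale (adjusted p from 0.00084 to 0.0166).

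Other genes of the pathway had smaller differences than most members. Of 31 listed, 27 were tested. At 18 h 5 of the 27 rose, against 3.27% of all genes tested, and 0 fell. The median log2 fold change was 0.11 over the 27 and -0.03 over all genes. Genes of the route that induces Ciita were among those that rose. Socs1, an inhibitor of Janus kinases that interferon induces, rose by 1.60 ± 0.22 (adjusted p = 0.00106) from 187, 144 and 162 to 469, 449 and 571. Irf1, a transcription factor acting on the interferon-responsive Ciita promoter, rose by 0.76 ± 0.16 (adjusted p = 0.0135) from 1634, 2214 and 2434 to 3443, 3651 and 3473. Socs1 was not highest in control 3 among the controls, unlike the members. Others of that list did not pass at 18 h: the log2 fold change was -0.16 for Ifngr1, -0.54 for Ifngr2, 0.01 for Jak1, 0.25 for Jak2, 0.01 for Irf2, 0.13 for Usf1 and 0.15 for Prdm1.

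The factors on which CIITA docks showed no call. Of the 7 listed subunits of RFX, NF-Y and CREB (Rfx5, Rfxap, Rfxank, Nfya, Nfyb, Nfyc and Creb1), 0 passed in any comparison by edgeR. Their summed level was 5115 to 5490 in control, 5451 to 5906 in 18h-αGal and 5119 to 5415 in 72h-αGal. Rfx5, for example, was at 527, 448 and 492 in control and at 540, 513 and 517 in 18h-αGal. Among the 10 genes for antigen processing and class II turnover, 2 rose at 18 h, against 3.27% of all genes tested. Ctsz, a cathepsin, rose by 0.93 ± 0.14 (adjusted p = 0.00174). Sppl2a, the intramembrane protease that clears the last invariant chain fragment, rose by 0.46 ± 0.11 (adjusted p = 0.0173). The log2 fold change was -0.05 ± 0.12 for Ifi30, the lysosomal thiol reductase, 0.36 ± 0.11 for Ctsb (adjusted p = 0.062) and -0.23 ± 0.28 for Ctsl, a protease that cleaves invariant chain in other epithelia. Between 18 h and 72 h, 7 pathway genes fell and 0 rose, against 6.04% of all genes called lower. Among the 7 were Socs1, Irf1, Jak2, Ctsb, Ctsz and Sppl2a. At 72 h against control 0 pathway genes were called. Without control 3 the counts of called pathway genes were 6 at 18 h, 0 at 72 h and 8 between the times. In that fit 4.25% of all genes were called higher at 18 h and 7.49% lower between the times.

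Of 4 further class II genes listed, 2 had counts. H2-Eb2 was listed at 0 in all control and 72h-αGal libraries and at 16.4, 36.8 and 5.52 normalised counts in 18h-αGal, and H2-Oa had 13.3 in control 2 alone. Neither reached the count filter with all libraries. Without control 3 H2-Eb2 did, and edgeR called it lower in 72h-αGal than in 18h-αGal, on these few counts (log2 fold change -7.53 ± 2.22, adjusted p = 0.0420). Of 9 genes for ligands that costimulate or inhibit T cells, 5 were tested and 2 rose at 18 h, against 3.27% of all genes tested. Cd274, which encodes PD-L1, went from 39.4, 45.6 and 26.2 to 164, 129 and 146 (log2 fold change 1.96 ± 0.42, adjusted p = 0.0137), and Icam1, an adhesion ligand, from 20.0, 11.4 and 33.3 to 88.3, 116 and 74.5 (2.18 ± 0.50, adjusted p = 0.0191). The classical B7 ligand gene Cd80 was at 63.4, 15.2 and 4.75 in control and 24.6, 14.4 and 8.28 in 18h-αGal, and did not pass.

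Professional antigen-presenting cells also express class II, so their markers were read beside the members. Of 23 myeloid and dendritic cell markers, 18 were in the table, 12 were tested and 0 passed in any comparison by edgeR. Their summed level was 620.5 to 782 normalised counts in control, 647 to 954 in 18h-αGal and 917 to 1230 in 72h-αGal, so the highest value was in 72h-αGal and the 18h-αGal range overlapped both other groups. Cd68 was its largest part in every library, at 262 to 466, 304 to 572 and 531 to 751 in these groups. In control 3 Cd14 was close to it, at 247 against 262. Of the defining genes, Itgax (CD11c) was at 0 to 5.04 in 18h-αGal, Adgre1 (F4/80) at 0 to 5.52, Csf1r at 11.7 to 19.5, and Flt3 at 0 in all 3. Others were not near 0 in 18h-αGal: the dendritic cell factor gene Zbtb46 was at 52.3, 62.9 and 74.5 against 68.7, 38.9 and 19.0 in control, Itgam (CD11b) at 37.7 to 69.0 against 11.7 to 66.4, and Cd14 at 129 to 191 against 63.4 to 247. Itgax was at 26.6, 8.07 and 43.4 in 72h-αGal against 3.52, 9.49 and 0 in control, higher in 2 of the 3. The 12 B cell and plasma cell markers, of which 11 were in the table, summed to 96.9 to 110 in control, 48.5 to 137.5 in 18h-αGal and 95.7 to 122 in 72h-αGal. Ptprc (CD45), which the sort gated out, was at 25.2, 39.5 and 26.2 in 18h-αGal against 29.4, 14.2 and 14.3 in control, and at 57.9, 35.3 and 4.42 in 72h-αGal. The T cell gene Cd3e was at 0, 0 and 0 in control, 1.26, 0 and 0 in 18h-αGal, and 24.3, 8.07 and 1.47 in 72h-αGal. The B cell gene Ms4a1 was at 0 in each control, at 2.76 to 6.31 in 18h-αGal and at 7.36 to 23.2 in 72h-αGal. Itgax, Cd3e and Ms4a1 were thus read at more counts in some 72h-αGal libraries than in control, but other genes of these lists, such as Cd247 and Cr2, had lower means there. The 16 T cell and innate lymphoid markers, of which 12 were in the table, summed to 559 to 880 in control and 436 to 811 in 72h-αGal. The median log2 fold change of 72h-αGal against control was 0.39 over the tested myeloid markers, -0.33 over the B cell and -0.14 over the T cell ones. The part of leukocyte genes in the 72 h values of the members was not tested. The 9 members summed to 3280, 3451 and 13851 in control, 47280, 45881 and 49099 in 18h-αGal, and 14479, 8873 and 9279 in 72h-αGal. Sums of different genes cannot give the share of class II RNA that came from antigen-presenting cells, and this share was not tested.

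Epithelial markers were abundant, with Epcam at 16279 to 22719 over the 9 libraries. Of the 10 listed, 0 were called against control by edgeR at either time, and without control 3 Vil1 alone was called higher at 18 h (log2 fold change 0.67 ± 0.19, adjusted p = 0.0472). The 6 crypt base stem cell markers summed to 68461, 82375 and 42510 in control, 39656, 29908 and 11720 in 18h-αGal, and 65849, 54737 and 86239 in 72h-αGal. Each 18h-αGal sum was below every other, and 0 of the 6 markers passed at 18 h. Without control 3, Axin2, a Wnt target, was called lower at 18 h (-1.53 ± 0.34, adjusted p = 0.0410). With all libraries Axin2 was called higher in 72h-αGal than in 18h-αGal (1.64 ± 0.34, adjusted p = 0.0218), the opposite direction to the members. Krt20, a gene of differentiated enterocytes, was at 3566, 2804 and 7729 in control and at 6385, 5974 and 7901 in 18h-αGal. Within 18h-αGal, the stem cell sum was 39656, 29908 and 11720 in replicates 1 to 3, and the class II sum was 47280, 45881 and 49099. Whether the mix of stem and differentiated cells has a part in the class II levels was not tested. In bulk RNA, a change in the share of cells that express a gene and a change per cell cannot be told apart.

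**Figure D4:**
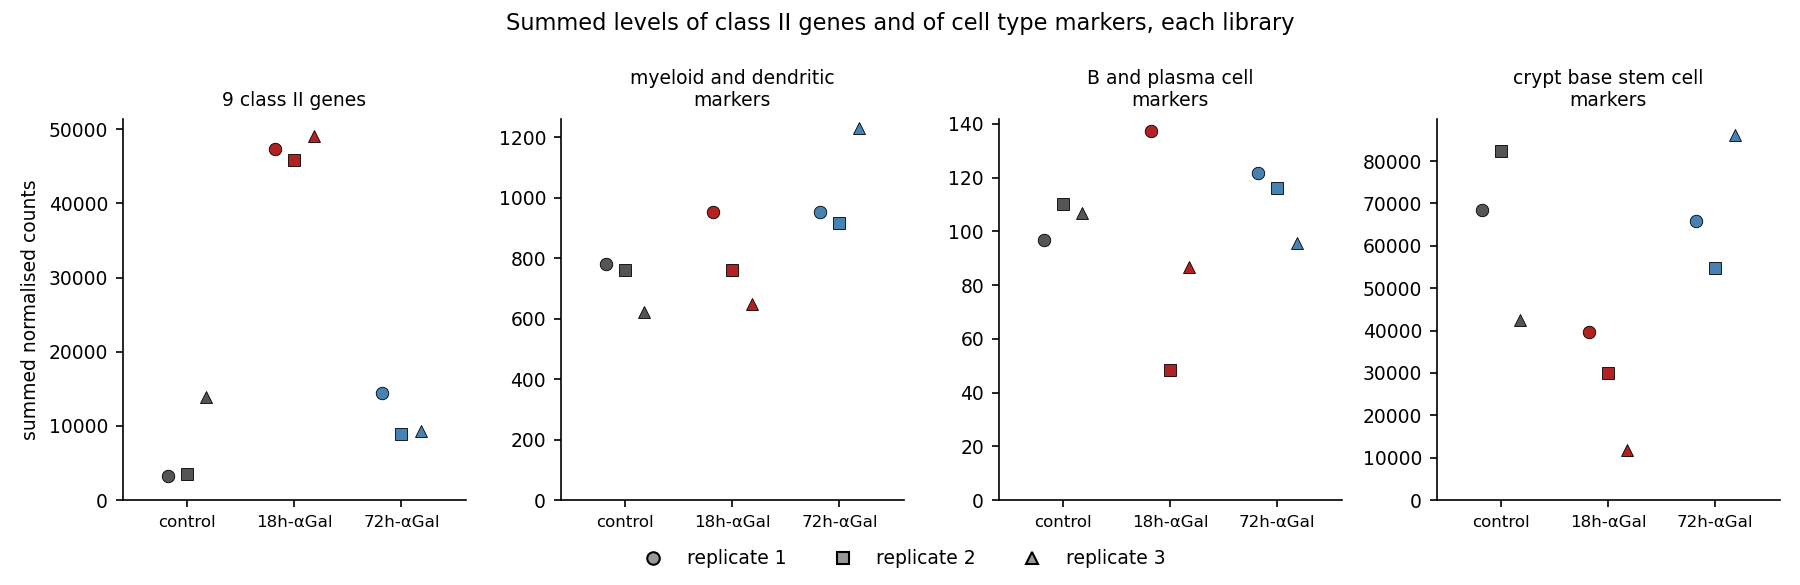
Summed normalised counts of the 9 class II genes and of 3 lists of cell type markers in each library, on linear axes that start at 0 and differ between panels. The class II sum is 45881 to 49099 in 18h-αGal and at most 14479 elsewhere. The highest myeloid sum, 1230, is in a 72h-αGal library, the B and plasma cell sum overlaps between groups, and the stem cell sum is lowest in 18h-αGal.

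The genes most like the members over the 9 libraries were looked for among 12640 others with a mean of at least 50 normalised counts, by the root mean square difference of centred log2 values. Closest to the mean pattern of H2-Aa, H2-Ab1, H2-Eb1 and Cd74 was Nlrc5, the class I counterpart of Ciita, with a difference of 0.25 against a median of 1.70 over all genes compared. Nlrc5 was at 96.9, 103 and 794 in control, 2491, 2957 and 2471 in 18h-αGal, and 627, 412 and 648 in 72h-αGal. It thus held the same high control 3. Ifit2 (0.44), 9330175E14Rik (0.47), the class I gene H2-Q7 (0.59) and Oas2 (0.62) came next, and in each of them control 3 was the highest control. The class II pattern itself held a high control 3, so the search favoured genes with one. Ciita was at 0.58 from this pattern and Ctss at 1.41. Closest to Ciita itself was Tap1, the peptide transporter subunit, with a difference of 0.19 against a median of 1.23, followed by Psmb9 (0.28), Psmb8 (0.32), Batf2 (0.33) and Il18bp (0.34). Among the members, H2-DMa (0.29) and H2-Ab1 (0.38) were nearest to Ciita, and H2-Aa (1.12) was farther off than Ctss (0.91). All of these distances rest on the same 9 libraries and are descriptions.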

How the data were processed

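Raw counts per gene and normalised counts were deposited by the authors. Per the labels, directional libraries of ribosome-depleted RNA were read at 100 bp. The study's methods name HISAT2 and GRCm39, while the submitters' processing notes list HISAT2, featureCounts, Subread, DESeq2 1.42.0, GRCm38 and mm10 without roles, so the build of the counts is uncertain. The deposited normalised signal equals the raw counts over 1 factor per library, with no correction for gene length. Symbols and GRCm39 positions came from GENCODE vM39 (28480 of 29288 identifiers matched).

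Counts were tested with the robust quasi-likelihood test of edgeR 4.0.16 (TMM, filterByExpr, all 9 libraries in 1 fit, Benjamini-Hochberg adjustment over all genes tested, called under 0.05). Scripts were tested on simulated data. Alternatives were DESeq2 1.42.0, limma 3.58.1 on log2(normalised count + 1), DESeq2 size factors in edgeR, no filter, the 2 groups alone, a replicate block and leaving out each library. Ratios used exact permutation tests. Replicates are separate mice, and replicate pairs differed by more than sampling noise (chi-square per degree of freedom 13.7 to 44.8). Same-numbered samples of different groups had correlations of -0.15 to 0.115, so the numbers do not pair them. All 9 members are named, with genes of preset lists that were called, those inducing Ciita, and the 5 nearest in pattern to each of the class II mean and Ciita; exceptions are marked. Some listed genes are not reported here. Members and lists were chosen with earlier results of these data known. The SE of the fits and the SD include differences between mice. For counts at 0 the limit of 3 counts that a count of 0 allows covers counting error only.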

Additional observations from a re-analysis of the deposited data

Results flagged for a closer look

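For 3 members the treated groups at 18 h and 72 h differed, by the direct edgeR comparison of 72h-αGal with 18h-αGal. With no PBS group at 72 h, this compares the levels at 2 harvests and does not measure a change in the effect of treatment. The log2 fold change was -2.10 for Ciita (adjusted p = 0.00671), -1.98 for H2-DMa (0.0361) and -0.74 for Ctss (0.0416), and all 3 libraries of 72h-αGal lay below all 3 of 18h-αGal for each. Over the alternatives the adjusted p ran up to 0.0412 for Ciita, 0.156 for H2-DMa and 0.153 for Ctss. No explanation was tested.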

How the results depend on the processing

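Of 328 values for single members under the alternatives, 264 kept their direction and side of the threshold, 30 lost a call, 32 gained one and 2 changed sign, both at 72 h against control: the log2 fold change of H2-DMb1 ran from -0.062 without control 2 to 1.57 without control 3, and that of Ctss from -0.55 without control 2 to 0.030 without control 3. Against 3 members called at 18 h, DESeq2 called 6, limma 7, and no filter, the 2 groups alone and the replicate block 1 each, and leaving out a library gave 1 to 8. Pathway genes at 18 h were 5, with 8 under no filter and 3 to 6 when a library was left out. At 72 h against control the members called were 0, and 0 to 6 when a library was left out, the 6 without control 3. Between 18 h and 72 h they were 3, with 6 under DESeq2, 8 with the 2 groups alone, 1 with the replicate block and 1 to 8 when a library was left out, where leaving out control 3 (8) was chosen after seeing the data. The replicate numbers are names only, and the replicate block changed no other count of calls by over 1.5 times. DESeq2 gave 8, 8 and 7 members an adjusted p in the 3 comparisons. The 2 groups alone gave H2-DMb2 no value at 72 h against control. The depth limits H2-DMb2, H2-Eb2 and H2-Oa. The cause of these differences was not tested beyond the fits named.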
